A study of Mus musculus with 2 samples.

Results

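Amino acid transporters of T cells were examined in mouse CD8 T cells kept under Tc1 cytokines, a condition that drives CD8 cells toward interferon gamma production and killing. The set holds 9 genes of 21877 measured, chosen by name as leucine, glutamine, small neutral and cationic amino acid carriers: Slc7a5, Slc3a2, Slc43a1, Slc1a5, Slc38a1, Slc38a2, Slc1a4, Slc7a1 and Slc7a6. Each was represented by 1 probe set. The untreated group was a culture under Tc1 cytokines with no further treatment, and the cholesterol group was a culture under the same cytokines with cholesterol added, each measured on 1 whole-transcript array from total RNA. The sources used here do not give the activating stimulus, the mouse strain and age, the purity of the cells, or the dose and duration of the cholesterol. With 1 array in each group there is no replicate error and no p-value for any difference, and every comparison is between these 2 arrays. In bulk RNA, fewer cells of a type and less RNA per cell cannot be told apart.

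Resting T cells take up few amino acids, and activated T cells raise their uptake to supply protein synthesis and growth. The carrier LAT1, encoded by Slc7a5, forms a heterodimer with the CD98 heavy chain, encoded by Slc3a2, and brings in leucine in exchange for an intracellular amino acid such as glutamine. Glutamine enters through ASCT2 (Slc1a5) and the sodium-coupled carriers SNAT1 (Slc38a1) and SNAT2 (Slc38a2), and arginine through the cationic carrier CAT1 (Slc7a1). Leucine and arginine inside the cell activate the growth kinase complex mTORC1, and the transcription factors MYC and ATF4 are known to induce several of these carrier genes.

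The promoters of 4 carriers are shown because their genes had the largest difference in each direction (Slc43a1 and Slc7a1), encode the shared subunit of the leucine carrier (Slc3a2), or hold the letters of an ATF4 site (Slc1a4). Each line gives the last 100 bases before the RefSeq start site and the first 4 after it, 5′ to 3′ on the gene's strand in GRCm38.p6, with every match to the motifs searched in capitals. Slc7a1 also has a downstream start site, whose bases (chr5:148392812-148392915) are not printed and hold none of the motifs.
Slc43a1, chr2:84840223-84840326, plus strand: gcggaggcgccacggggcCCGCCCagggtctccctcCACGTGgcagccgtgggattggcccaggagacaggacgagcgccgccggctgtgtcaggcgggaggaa
Slc7a1, chr5:148399901-148400004, minus strand: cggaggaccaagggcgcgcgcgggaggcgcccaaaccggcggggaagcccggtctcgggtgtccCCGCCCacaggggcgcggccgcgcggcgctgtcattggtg
Slc3a2, chr19:8713894-8713997, minus strand: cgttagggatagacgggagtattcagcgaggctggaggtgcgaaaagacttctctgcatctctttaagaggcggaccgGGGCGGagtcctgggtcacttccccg
Slc1a4, chr11:20332710-20332813, minus strand: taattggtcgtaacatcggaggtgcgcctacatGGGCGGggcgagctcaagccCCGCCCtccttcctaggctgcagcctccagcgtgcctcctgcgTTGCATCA

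Motifs were searched on both strands in windows from 250 bases before to 50 after the start, which RefSeq tables held for 6 of the 9 carriers in 8 windows. The E-box CACGTG, which MYC binds with MAX, was found in the window of Slc43a1 and of none of the other 5 genes, at 64 bases before the start, and 7.15% of all 32851 windows of this length hold it. The letters TGATGNAA, the core of the element that ATF4 binds with C/EBP proteins, were likewise found in the window of Slc1a4 only, on the opposite strand and spanning the start site, and 3.97% of all windows hold them. The letters TCACNCCAC, a form of the sterol regulatory element bound by SREBP, were found in none of the 8 windows and in 1.24% of all windows. The GC box GGGCGG, which Sp1 binds, was found in at least 1 window of each of the 6 genes. Of the 8 windows, only the downstream one of Slc7a1 (chr5:148392766-148393065) lacked it, and 35.7% of all windows hold it. The windows of Slc7a6 overlap and share the same GC box, so the windows are not independent. The motifs did not overlap in the bases printed. These matches describe letters only.

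Signals are in the authors' linear units. A probe set's signal depends on its own probes, so the levels of different carriers are not ranked. The negative control probe sets had a 95th percentile of 130.3 without and 121.8 with cholesterol, and a signal at or below this limit of its array is called background level here. A gene entered the counts if either of its signals reached 47.4, the median signal over gene-level probe sets. This brightness filter left 11327 genes, whose median log2 difference, cholesterol minus untreated, was 0.049. They were split into 5 bands of equal size by mean signal, since the spread of differences narrowed with signal. Of the 9 carriers, 8 passed the filter and 7 lay above background level on both arrays.

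The 8 carriers past the filter were split evenly, with 4 lower and 4 higher on the cholesterol array. Of all 11327 genes, 40.4% were lower and 58.6% higher, so the carriers' split was near that of genes at large for a set of this size. Among the 7 carriers above background level on both arrays 4 were lower and 3 higher, where 37.2% and 61.9% of the 7112 such genes were. After quantile normalization or loess the split of the 8 was 7 lower and 1 higher, and the carriers that turned were the 3 glutamine carriers. The shares of all genes lower or higher after these scalings were not computed. The shares above, from the deposited signals, do not apply to that split. No carrier was lower by at least 1.5-fold (2.72% of all genes were) and 1, Slc43a1, was higher by at least 1.5-fold (3.22% of all genes were). Counts past 1.5-fold are of the deposited signals, and the untreated signal of Slc43a1 was at background level, so its bound of at least 1.48-fold does not reach 1.5. The median difference over the 8 carriers was -0.037, against 0.049 for all genes, and with Slc1a4 it was 0.0098. By class, the LAT1 pair and CAT1 were lower, the glutamine carriers had nearly equal signals, and LAT3 (Slc43a1) was higher.

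**Figure D1:**
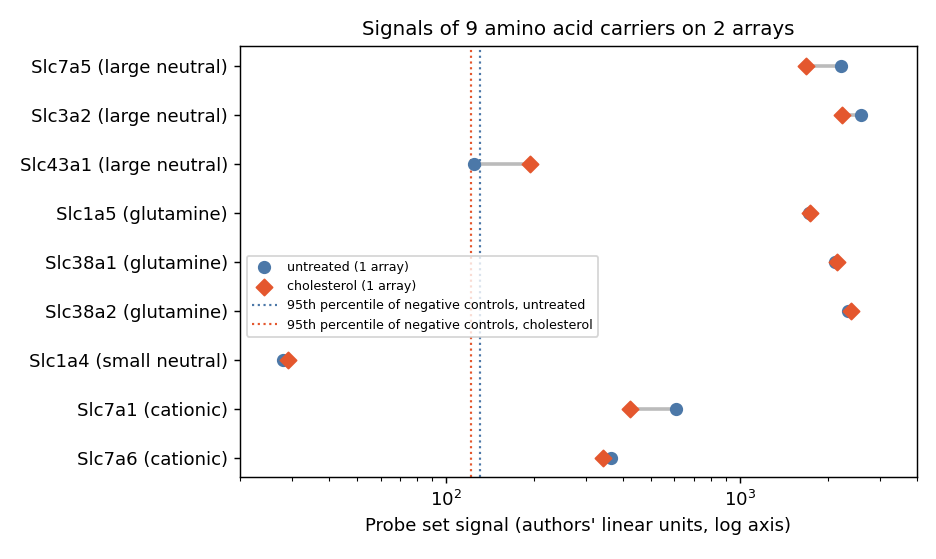
Signal of each carrier's probe set on the untreated array (circles) and the cholesterol array (diamonds), on a log axis in the authors' linear units, with dotted lines at the 95th percentile of the negative controls of each array. Slc7a5, Slc3a2 and Slc7a1 lie lower with cholesterol, the circles and diamonds of Slc1a5, Slc38a1 and Slc38a2 nearly coincide, and both signals of Slc1a4 lie far below the dotted lines.

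Both chains of the main leucine carrier were lower with cholesterol. Slc7a5, the transporting chain LAT1, had a signal of 2212 without and 1686 with cholesterol. It was 1.31-fold lower, a log2 difference of -0.39, and stayed lower under every scaling tried, from -0.45 to -0.36. In its band, the brightest of the 5, 41 of 2265 genes (1.81%) had a difference at least as low. Slc3a2, the CD98 heavy chain that carries LAT1 to the cell surface, had a signal of 2592 without and 2227 with cholesterol. It was 1.16-fold lower, a log2 difference of -0.22, and 126 of 2265 genes of the same band (5.56%) were at least as low. The central 95% of that band ran from -0.34 to 0.45, so Slc7a5 lay outside it and Slc3a2 inside.

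Slc43a1 encodes LAT3, which lets leucine and other large neutral amino acids pass down their gradient without exchange and without the CD98 heavy chain. Its signal was 125.2 without and 192.7 with cholesterol, opposite in direction to the LAT1 pair. The untreated signal was at background level, so the fold is at least 1.48, and the log2 difference of the deposited signals was 0.62. In the deposited signals this was the largest absolute difference of the 8 carriers, but after quantile normalization and loess it was 0.56 under each, less in size than that of Slc7a1 (-0.59 under each). With an offset of 16 it was also 0.56, and under these 3 settings it did not reach 1.5-fold. In its own band, the middle of the 5, 66 of 2266 genes (2.91%) were at least as high, and the central 95% ran from -0.49 to 0.65, which holds it. Of the listed transport, sensing and metabolism genes past the brightness filter, the 3 with the log2 difference nearest to that of Slc43a1 over the 2 arrays were Slc6a20a (0.59, at background level on both arrays), Sfxn3 (0.54) and Asl (0.51), at distances of 0.029, 0.085 and 0.11.

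The 3 glutamine carriers had nearly the same signal on both arrays. Slc1a5, the sodium-dependent exchanger ASCT2, had a signal of 1725 without and 1737 with cholesterol. Slc38a1, the sodium-coupled carrier SNAT1, had signals of 2119 and 2144. Slc38a2, its relative SNAT2, which amino acid shortage induces, had signals of 2341 and 2386. Their log2 differences were 0.0098, 0.017 and 0.028, and all 3 turned to between -0.045 and -0.0083 after quantile normalization or loess. In the brightest band, 57.1% to 61.2% of genes were at least as high as each of them, which places them near the middle of genes of like signal. Slc38a1 and Slc38a2 are next to each other in the RefSeq order of protein-coding genes, followed by Slc38a4, another member of the family, which had signals of 10.4 and 8.42, at background level.

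Slc1a4, the alanine, serine, cysteine and threonine carrier ASCT1, could not be compared with this probe set. Its signals of 27.9 without and 29.1 with cholesterol were both at background level and did not reach the brightness filter, so no fold is given.

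The cationic carriers were both lower, by unequal amounts. Slc7a1, the arginine and lysine carrier CAT1, had a signal of 605.9 without and 422.4 with cholesterol. It was 1.43-fold lower, a log2 difference of -0.52, and the range over scalings was -0.59 to -0.49, so that quantile normalization and loess placed it just past 1.5-fold. In the second brightest band, 24 of 2265 genes (1.06%) were at least as low, and the central 95% ran from -0.38 to 0.53, which leaves it outside. Slc7a6, the chain y+LAT2, which exports arginine in exchange for neutral amino acids and also needs the CD98 heavy chain, had signals of 363.8 and 343.3. Its log2 difference was -0.083, and 20.9% of genes in the same band were at least as low. It was lower under every scaling tried, from -0.17 to -0.050.

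**Figure D2:**
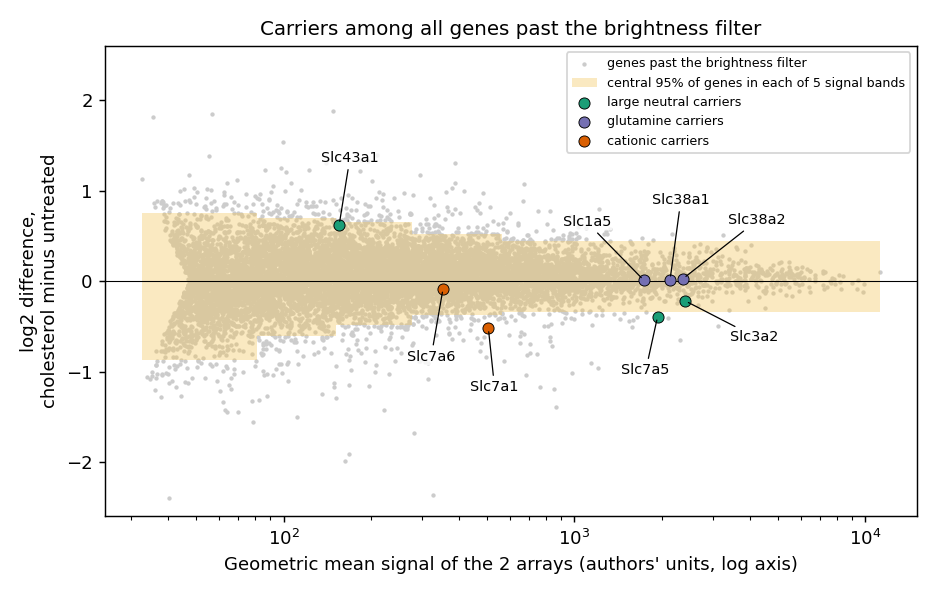
Log2 difference, cholesterol minus untreated, against the geometric mean signal of the 2 arrays on a log axis for the 11327 genes past the brightness filter (grey), with the central 95% of each of 5 signal bands shaded and the 8 carriers past the filter coloured by class. Slc7a5 and Slc7a1 lie below the shaded range of their bands, and Slc43a1 near its upper edge.

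Carriers of 1 class did not share a difference in every case. Among leucine carriers, Slc7a5 (-0.39) and Slc43a1 (0.62) were on opposite sides of 0. Of the CD98 heavy chain and its light chains in the set, Slc3a2 and Slc7a5 were at -0.22 and -0.39 and Slc7a6 at -0.083. Among glutamine carriers, the differences spanned 0.0098 to 0.028. These are single differences with no replicate spread, and the difference between classes was not tested. As a yardstick from the same arrays, the brightest pair of probe sets of 71 genes differed in their log2 difference by a median of 0.14. This is more than the differences of the glutamine carriers and of Slc7a6 and less than those of Slc7a5, Slc3a2, Slc7a1 and Slc43a1. The yardstick holds no spread between cultures, RNA samples or arrays, so a difference larger than it is not thereby beyond noise.

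The other 45 amino acid carriers of the plasma membrane and lysosome were mostly dim. Of these, 17 passed the brightness filter, of which 11 were higher and 6 lower, with a median of 0.28, and over all 45 the median was -0.032. Of all 11327 genes past this filter 58.6% were higher and 40.4% lower, to be set beside this count and those of the lists below. Of the 7112 genes above background level on both arrays, 61.9% were higher and 37.2% lower. Slc16a10, a carrier of aromatic amino acids, was at least 1.03-fold higher, with signals of 78.4 and 134.0. Slc7a10, an alanine and serine exchanger, had signals of 70.2 and 43.3, at background level. Above background level on both arrays lay 7 of them, 5 higher and 2 lower, none past 1.5-fold. Of 9 mitochondrial carriers past the filter, 6 were higher and 3 lower, with Sfxn3 1.45-fold higher and Slc25a38, a glycine carrier, 1.27-fold lower. Slc25a15, the mitochondrial ornithine carrier, had signals of 57.3 and 71.4, at background level.

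Genes that sense amino acids for mTORC1 showed no common direction. Of 31, 29 passed the filter, with 13 higher, 14 lower and 2 equal, a median of 0.00 and none past 1.5-fold. The split was 18 higher and 11 lower after centring each array on its median, and 9 higher and 20 lower after quantile normalization or loess. The matching shares of all genes under these scalings were not computed. Mlst8, a subunit of the mTOR complexes, was 1.34-fold lower (-0.42). Sesn2, the leucine sensor Sestrin 2, was 1.28-fold lower, from 175.9 to 136.9, while its relative Sesn3 was 1.28-fold higher, from 602.7 to 773.8. Gatsl2, the paralog of the arginine sensor CASTOR1, was at least 1.02-fold higher, with signals of 100.1 and 132.8.

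Among enzymes that use the imported amino acids, none of the glutamine, branched-chain, or serine and glycine genes past the filter reached 1.5-fold. Of 13 genes of glutamine and glutamate metabolism past the filter, 6 were higher and 7 lower, with a median of -0.030, or 0.0040 after centring. Glul, glutamine synthetase, was 1.22-fold higher and Ctps, CTP synthase, 1.21-fold higher. Of 11 genes of branched-chain amino acid breakdown, 7 were higher and 4 lower, with a median of 0.079. The transaminases of leucine differed in direction, with the cytosolic Bcat1 1.25-fold lower, from 483.3 to 387.9, and the mitochondrial Bcat2 1.26-fold higher, from 177.3 to 224.0. Bckdha, a subunit of the next enzyme, had signals of 79.0 and 100.5, at background level.

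Serine and glycine genes were lower in 6 of 8, and all 8 lay above background level, with a median of -0.17 and none past 1.5-fold. Of all genes above background level on both arrays, 37.2% were lower. Psat1 and Mthfd1 were both 1.15-fold lower and Mthfd2, a mitochondrial folate enzyme, 1.14-fold lower. Of 12 arginine and polyamine genes past the filter, 7 were higher and 5 lower, with a median of 0.087, and 6 were higher and 6 lower after quantile normalization or loess. Odc1, ornithine decarboxylase, which starts polyamine synthesis from the product of arginine cleavage, was 1.40-fold lower, from 1355 to 968.3, and was nearest to Slc7a1 in log2 difference among the listed transport, sensing and metabolism genes past the brightness filter. Srm, spermidine synthase, was 1.33-fold lower, from 1662 to 1247, and was named after its value was seen. Asl, argininosuccinate lyase, was 1.42-fold higher, from 143.8 to 204.7, and Nos2 had signals of 59.7 and 27.4, at background level.

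The 16 regulators of carrier genes included 9 higher and 7 lower, with none past 1.5-fold and a median of 0.046, or -0.028 after quantile normalization and -0.018 after loess. Ddit3, a stress factor downstream of ATF4, was 1.32-fold higher, Nedd4l, a ubiquitin ligase, 1.15-fold lower and Eif2s1, the initiation factor eIF2 alpha, 1.14-fold lower. The factors known for these carriers were Myc, with signals of 4624 without and 4281 with cholesterol (-0.11), and Atf4, with 1617 and 1489 (-0.12).

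**Figure D3:**
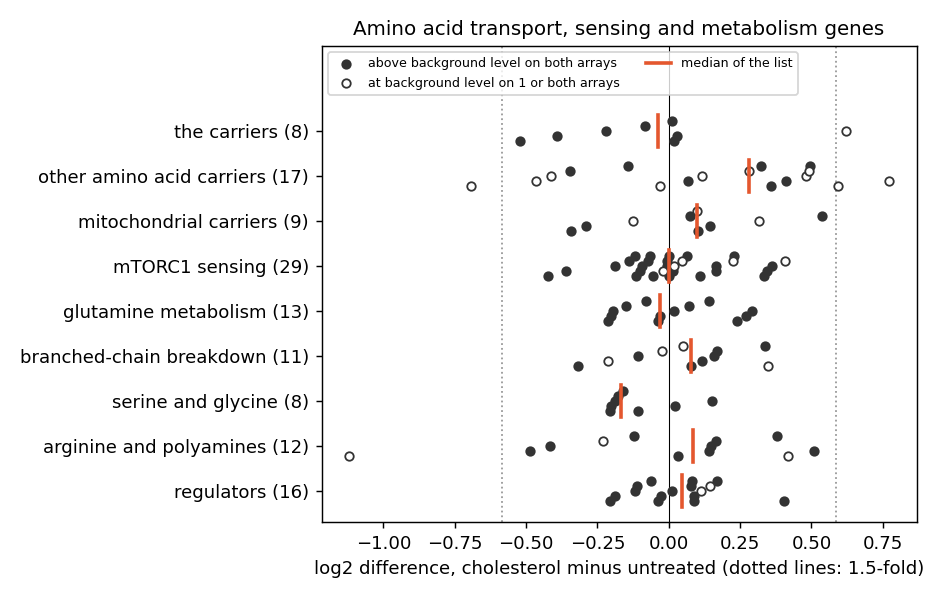
Log2 difference, cholesterol minus untreated, of each gene past the brightness filter in 9 lists, with the number of genes in brackets, the median as an orange bar, and open points for genes at background level on 1 or both arrays. The carriers run from -0.52 to 0.62, the other carriers have a median of 0.28, and the serine and glycine genes have a median of -0.17.

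Markers of the labelled cell type were high on both arrays, with Cd8a at 3274 without and 3780 with cholesterol. All 10 T cell identity genes lay above background level and were higher with cholesterol, or 9 of 10 after loess, with a median of 0.18 and a summed signal of 19012 without and 21935 with cholesterol, and Cd3d, Zap70 and Cd8b1 had the largest differences (0.46, 0.46 and 0.31). Several markers of other cells were lower beside the lower Slc7a5, Slc3a2 and Slc7a1. Marker counts are over all listed genes, and without a brightness filter 47.7% of the 21877 genes were lower. For B cells the summed signal was 709.7 without and 438.8 with cholesterol, 6 of 7 were lower, and 5 of 7, Pax5 among them, were at background level on both arrays. Cd79a was at least 2.06-fold lower. For macrophages and dendritic cells the summed signal was 2546 and 1482, with 8 of 12 lower and 8 of 12, Mpeg1 included, at background level on both arrays. Of the 4 above it, Cd74, H2-Aa and H2-Ab1 were 2.29-fold, 1.85-fold and 1.43-fold lower and Cd68 was 1.25-fold higher. Most of the sum was Cd74 (1288 and 562.0), H2-Aa (397.6 and 214.8) and H2-Ab1 (441.3 and 308.3), which are not markers of macrophages alone. CD4 T cell markers summed to 1800 and 1797 with 4 of 5 lower, but 2 of 5, Foxp3 and Cd40lg, were at background level on both arrays. Another of the lower markers, Zbtb7b, was at -0.011 and turned to 0.022 after centring. The summed signal hardly differed, but it joins Cd4, which was 1.54-fold lower (605.0 and 393.1, -0.62), with Ctla4, which was higher (841.0 and 1079, 0.36). NK cell markers summed to 1199 and 802.8 with 3 of 5 lower, but 4 of 5 (Klrb1c, at 0.0024, among them) were at background level on both arrays, and most of the sum was Eomes (1038 and 655.2), which CD8 T cells also express. Erythroid, granulocyte and mast cell markers summed to 374.5 and 239.6 with 7 of 9 lower, 8 of the 9 at background level on both arrays, Hbb-bt and Hba-a1 included, and Cpa3 at least 1.11-fold lower. Their part in the carrier differences was not tested.

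**Figure D4:**
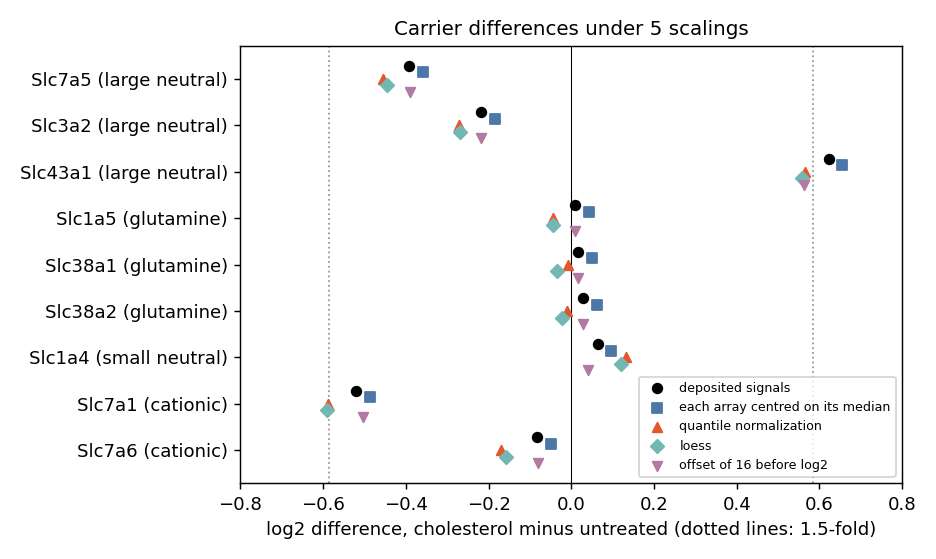
Log2 difference, cholesterol minus untreated, of each carrier under the deposited signals and 4 other scalings, with dotted lines at 1.5-fold. Slc7a5, Slc3a2, Slc7a1 and Slc7a6 stay below 0 and Slc43a1 above it throughout, while Slc1a5, Slc38a1 and Slc38a2 fall on both sides of 0.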

How the data were processed

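Biotin-labelled total RNA was hybridised to 1 whole-transcript array per condition, per the labels' protocols. The authors deposited a linear signal intensity for each of 28846 probe sets. They also deposited a ratio of cholesterol over untreated for 22206 of them, which equals the quotient of the signals for all 22206 within 1e-08 and was not otherwise used. Software, background correction, normalization and genome build were not stated by the labels or headers. A second deposited table held identical intensities. After 27 probe sets with symbols turned into dates, 3 without a symbol and 1 with a symbol pair were left out, 21877 genes remained, each at its brightest probe set. Differences are of log2 signals and carry no test.

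The 9 carriers and all lists were chosen with earlier results of these data known. Of 209 listed genes, all matched a symbol on the array, 5 of them through RefSeq synonyms (GRCm38.p6). The genes named are all carriers and, from each list, the 3 past the brightness filter with the largest absolute difference or any past 1.5-fold above the negative controls on at least 1 array. A few of these are not reported here. Other listed genes in the text were named after their values were seen. A fold is exact where both arrays lay above background level. Where only the brighter did, and it exceeded the limits of both arrays, the fold is at least its signal over the other array's limit. Otherwise no fold is given. Alternatives were median centring, quantile normalization, loess (statsmodels 0.14.6, fraction 0.3), an offset of 16, and other filters. Median centring, quantile normalization and loess were tested on simulated data, and the offset was not. With 1 array per group, precision is limited by the number of arrays.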

Additional observations from a re-analysis of the deposited data

How the results depend on the processing

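No paired analysis was possible because each group has 1 array, and for the same reason no replicate could be left out. A difference counted as moved when it shifted by at least 0.14 on the log2 scale, the median disagreement between probe sets of a gene, and a count on changing over 1.5 times. None of the 45 recomputed carrier differences moved. Those from the mean of all probe sets could not move, since each carrier had 1 probe set. Centring could not move any carrier difference or list median either, since it shifts every difference by the same 0.0335. The offset is small beside bright signals, so it could hardly move the bright carriers. A change of sign alone did not count as moved, and the glutamine carriers changed sign after quantile normalization and loess. Of the carriers past the filter, 4 higher became 1, and 4 lower became 7, after quantile normalization and after loess. Shares of all genes were computed for the deposited signals only, so counts under other scalings have no share beside them. The count higher by at least 1.5-fold went from 1 to 0 after quantile normalization, loess and the offset and among carriers above the negative controls on both arrays, and the count lower by at least 1.5-fold from 0 to 1 after quantile normalization and loess, with Slc7a1. Of 89 recomputed list medians 11 moved. Without a brightness filter the median of the other carriers went from 0.28 to -0.032, of CD4 T cell markers from -0.32 to -0.50, of B cell markers from -0.87 to -0.34, of macrophage and dendritic cell markers from -0.72 to -0.17, of NK cell markers from -0.33 to -0.089 and of erythroid, granulocyte and mast cell markers from -0.45 to -0.29. Above the negative controls the medians were -0.011 for CD4 T cell, -0.33 for B cell and -0.66 for NK cell markers. With the offset they were -0.66 for B cell and -0.57 for macrophage and dendritic cell markers. The cause was not tested.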

Other observations

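Groups of carriers that share a mechanism were put together after their values had been seen, and they are described only. The 6 light chains known to pair with the CD98 heavy chain (Slc7a5, Slc7a6, Slc7a7, Slc7a8, Slc7a10 and Slc7a11) were all lower with cholesterol, from -0.69 to -0.022, where 47.7% of all genes were lower without a brightness filter, but only Slc7a5 and Slc7a6 lay above background level. Slc7a11, the cystine carrier xCT, had signals of 42.6 and 41.9. It was no longer lower after centring each array on its median, quantile normalization or loess. The 3 carriers that let large neutral or aromatic amino acids pass without exchange were all higher, where 58.6% of all genes past the brightness filter were. Slc43a1 and Slc16a10 were at background level on the untreated array. Beside them, Slc43a2, the carrier LAT4, was 1.28-fold higher, from 281.6 to 360.7, above background level on both arrays.

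The 5 carriers of the lysosomal membrane grouped here were also higher, from 0.12 to 0.49, against 58.6% of all genes past the brightness filter. Slc7a14, a listed carrier that is also lysosomal, was not in this group. It was lower (-0.14), at background level on both arrays, and did not reach the brightness filter. Slc38a9, which signals lysosomal arginine to mTORC1, was 1.33-fold higher, from 355.1 to 471.6, and Ctns, the cystine exporter of the lysosome, was 1.41-fold higher, from 135.2 to 190.3. Slc36a1 (78.5 and 109.6), Slc38a7 (74.0 and 89.8) and Pqlc2 (54.3 and 58.8) were at background level on both arrays. Outside these groups, Slc6a9, a glycine carrier, was 1.27-fold lower, from 247.3 to 194.6.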
